A study of Homo sapiens with 4 samples.

Results

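The subject is the family of integrin and laminin subunits in KYSE410, a human cell line from a squamous carcinoma of the oesophagus. The members were 35 named subunits, 17 integrin α, 8 integrin β and 10 laminin chains, chosen by gene symbol among 17185 named genes on the array. All 35 were measured, by 37 probe sets of 3 probes each. The cells were kept for 24 h with lipopolysaccharide (LPS, from the outer membrane of Gram-negative bacteria), with 1 of the cytokines interleukin 1β (IL1β) and tumour necrosis factor α (TNFα), or with the solvent alone, phosphate-buffered saline (PBS). All 4 groups were the same line without a labelled genetic change, and no source used here states the doses. The study screened for messenger RNAs responsive to inflammation, with 1 single-colour NimbleGen array per condition. Without replicates, the differences below carry neither an error nor a p-value.

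Integrins are transmembrane receptors built from 1 α and 1 β subunit, and the pairing sets which matrix or cell-surface ligand is bound. Laminins are trimers of an α, a β and a γ chain that form the core of basement membranes, the sheets on which squamous epithelium rests. In that epithelium α6β4 anchors basal cells to laminin-332 at hemidesmosomes, and β1 integrins serve adhesion to collagen, fibronectin and laminin. The β2 integrins are known from leukocytes.

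Values are RMA intensities on a linear scale (RMA is a summary of the probes of a set after background correction and equalising of arrays), and differences are given as folds or on the log2 scale. A subunit is called higher or lower when its intensities on a pair of arrays were 2-fold or more apart and the larger reached a floor. That floor was 8.02 on the log2 scale, an intensity of 260, which is the median of named genes. The random-sequence control probes read between 54.1 and 56.4 on the 4 arrays, and values under 2 times that level on the same array are called near background. Apart from the shared floor and the sums over marker lists, levels of different genes were not compared, since each probe set has its own response. Reaching the floor thus depends in part on the probe set, and the brightest sets weigh most in a sum. All 10 squamous epithelial markers reached the floor on each array, with KRT5, a basal keratin, between 48523 and 59820. Markers of other cell types reached it too, so this does not show that the RNA was from epithelial cells alone. Of 8 striated and cardiac muscle markers, 7 were at the floor with PBS, 6 after TNFα, 7 after IL1β and 3 after LPS. The cardiac myosin MYH6 read 9470 with PBS, 14709 after TNFα, 17101 after IL1β and 81.3 after LPS. The LPS array stood apart from the rest, with 854 genes higher and 718 lower than with PBS, where TNFα gave 317 and 320 and IL1β 295 and 337.

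Of the 35 subunits 25 reached the floor on at least 1 array (71.4%, against 59.8% of all named genes), and 18 did so on all 4 arrays. Among α subunits 11 of 17 reached it, among β subunits 7 of 8 and among laminin chains 7 of 10. The 10 that stayed under it were ITGA4, ITGA8, ITGA9, ITGA10, ITGA11, ITGAM, ITGB3, LAMA2, LAMA4 and LAMC3. Of these, ITGA8, ITGA10, ITGAM, ITGB3 and LAMA4 were near background on every array, and ITGA11 came closest to the floor, at 258 with IL1β. In the textbook scheme of 23 integrin pairs that these subunits can form, 7 pairs had both subunits at the floor on all 4 arrays, namely α2β1, α3β1, α5β1, α7β1, αVβ1, αVβ5 and αEβ7. Another 9 pairs had a subunit that never reached it. The laminin chains at the floor on all 4 arrays were α1, α3, α5, β1, β2, β3 and γ1.

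**Figure D1:**
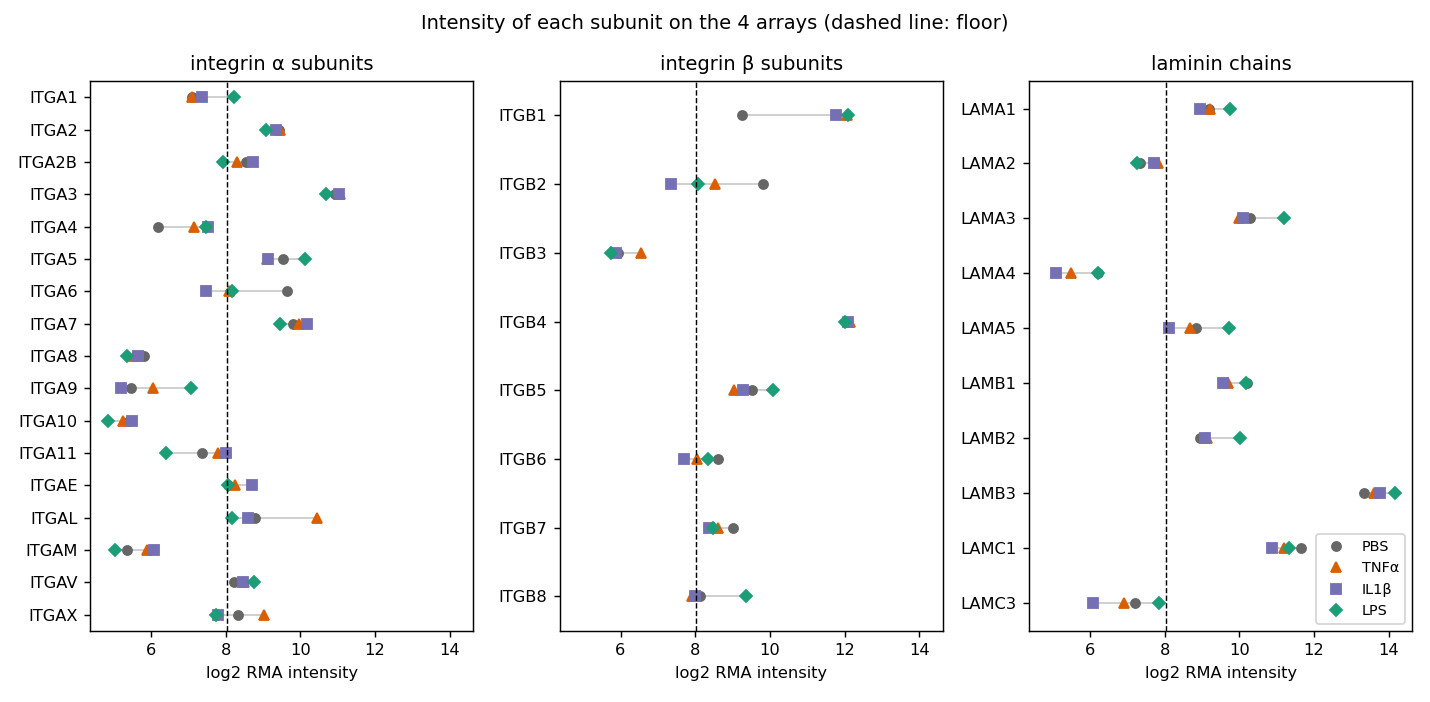
Log2 RMA intensity of the 35 subunits on the PBS, TNFα, IL1β and LPS arrays (1 array each), in panels of integrin α subunits, integrin β subunits and laminin chains; the dashed line is the floor of 8.02. ITGB1 has 3 stimulated arrays close together and far above PBS, ITGA6 and ITGB2 are highest with PBS, and 13 of the 25 subunits at the floor vary by less than 1 log2 unit.

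ITGB1, the β1 chain shared by 12 of the 23 pairs, was higher with each stimulus than with PBS. Its intensity was 616 with PBS, 4252 after TNFα, 3486 after IL1β and 4330 after LPS. The PBS array alone was low, and the 3 stimulated arrays lay within 0.31 log2 units of each other. ITGB1 was 6.91-fold higher with TNFα, 5.66-fold with IL1β and 7.03-fold with LPS. Among genes at the floor it ranked 31st from the top of 9419 with TNFα, 34th of 9427 with IL1β and 57th of 9675 with LPS. These comparisons share the single PBS array, so they are not independent of each other, and a low value on that array and a rise with every stimulus cannot be told apart.

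ITGA6, the laminin-binding α6 chain that pairs with β1 or β4, was lower with each stimulus. Its intensity was 800 with PBS, 275 after TNFα, 177 after IL1β and 290 after LPS. PBS was again the array that stood apart, here on the high side, and IL1β was the lowest. ITGA6 was 2.91-fold lower with TNFα, 4.51-fold with IL1β and 2.76-fold with LPS, ranking 119th, 45th and 269th from the bottom. The stimulated arrays differed from each other by at most 0.71 log2 units, under the 2-fold limit. In the α6β1 pair the subunits were thus called in opposite directions with all 3 stimuli. For ITGA6 too these comparisons share the single PBS array and are not independent. A high value on that array and a fall with every stimulus cannot be told apart.

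Against the single PBS array, ITGB1 and ITGA6 were called in opposite directions with all 3 stimuli. The sequences before their start sites are shown for that reason. They are the 250 bases upstream of the annotated start, from RefSeq on GRCh38.p14, at chr10:32958231-32958480 on the minus strand and chr2:172427086-172427335 on the plus strand. Capitals mark a match to the κB consensus, the recognition motif of the NF-κB transcription factors, searched on both strands.
ITGB1: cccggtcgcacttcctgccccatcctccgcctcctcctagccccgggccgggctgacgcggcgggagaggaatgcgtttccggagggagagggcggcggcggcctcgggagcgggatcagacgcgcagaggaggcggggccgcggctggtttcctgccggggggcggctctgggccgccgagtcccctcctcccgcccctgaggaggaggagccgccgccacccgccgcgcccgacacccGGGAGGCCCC
ITGA6: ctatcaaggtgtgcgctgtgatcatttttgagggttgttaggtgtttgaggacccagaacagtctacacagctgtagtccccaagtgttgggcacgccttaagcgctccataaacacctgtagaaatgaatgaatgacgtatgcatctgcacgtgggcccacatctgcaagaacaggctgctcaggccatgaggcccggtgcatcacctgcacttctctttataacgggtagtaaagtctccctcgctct
The ITGB1 window held a match 10 bases before the start that reads on both strands, and the ITGA6 window held none. This motif was in 9.96% of the 35116 windows that RefSeq gives. A window was given for 25 of the 35 subunits, and 8 of their 32 windows held the motif, in ITGA1, ITGA5, ITGA10, ITGA11, ITGB1, ITGB8 and LAMB3. A match is a description of the letters and not a site shown to be bound.

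ITGB4, the β4 chain of the hemidesmosome receptor, was the only member with more than 1 probe set, and its 3 sets gave different answers. The brightest set read 4245 with PBS, 4552 after TNFα, 4360 after IL1β and 4106 after LPS. By this set ITGB4 had the smallest range of the 25 subunits at the floor, 0.15 log2 units. A second set, for transcript NM_001005731, read 4600 with PBS, 3913 after TNFα, 4161 after IL1β and 2962 after LPS. The remaining set, for transcript NM_000213, read 3219 with PBS, 2128 after TNFα, 1919 after IL1β and 1562 after LPS. Its log2 difference of LPS from PBS was -1.04, past the 2-fold limit, where the brightest set gave -0.05 and the other set -0.64. The 3 sets were thus up to 0.995 log2 units apart on 1 difference of 1 gene. Over 701 genes with a second set at the floor, the 2 sets disagreed on LPS minus PBS with an SD of 0.76. That SD was 0.59 for TNFα and 0.61 for IL1β. The differences of all genes at the floor had SDs of much the same size, 0.80 for LPS, 0.59 for TNFα and 0.58 for IL1β. The other 34 subunits had 1 set each and no such check.

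**Figure D2:**
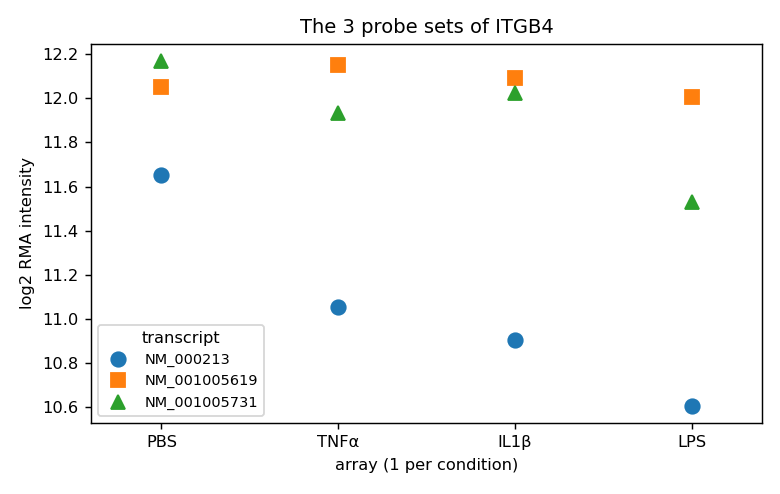
Log2 RMA intensity of the 3 ITGB4 probe sets on the 4 arrays, 1 array per condition, each marker being 1 probe set named by its transcript. The set NM_001005619 stays between 12.00 and 12.15, while NM_000213 goes from 11.65 with PBS to 10.61 with LPS.

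With TNFα against PBS, 24 subunits had at least 1 of both values at the floor, and 2 were higher and 2 lower. Over all genes at the floor 3.37% were higher and 3.4% lower in this comparison. Besides ITGB1 and ITGA6 these were ITGAL, higher, and ITGB2, lower. The other 20 lay between the 2-fold limits, 12 of the 24 differences were positive, and their median was -0.07 log2 units, as was that of all genes at the floor. None of the 7 laminin chains at the floor reached 2-fold, with differences from -0.51 (LAMB1) to 0.27 (LAMB3).

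With IL1β against PBS, ITGB1 was higher, where 3.13% of all genes at the floor were, and ITGA6 and ITGB2 were lower, where 3.57% were. The remaining 21 of 24 subunits were not called, and the median was -0.18 against -0.05 for all genes at the floor. ITGB6, the β chain of a receptor that activates latent TGFβ in epithelium, came nearest to the limit, with 392 on the PBS array, 264 with TNFα, 207 with IL1β and 326 with LPS. Its log2 difference with IL1β was -0.92. Laminin chains had a median of -0.25, with LAMC1, the γ1 chain common to most laminins, at -0.78 and LAMA5 at -0.73.

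With LPS against PBS, 4 of 25 subunits were higher (16%, against 8.83% of all genes at the floor) and 2 were lower (8%, against 7.42%). The higher ones were ITGB1, ITGA1, ITGB8 and LAMB2, and the lower ones ITGA6 and ITGB2. The share of lower subunits was thus near that of all genes, and the median of the 25 was -0.03 against 0.05 for all genes at the floor.

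**Figure D3:**
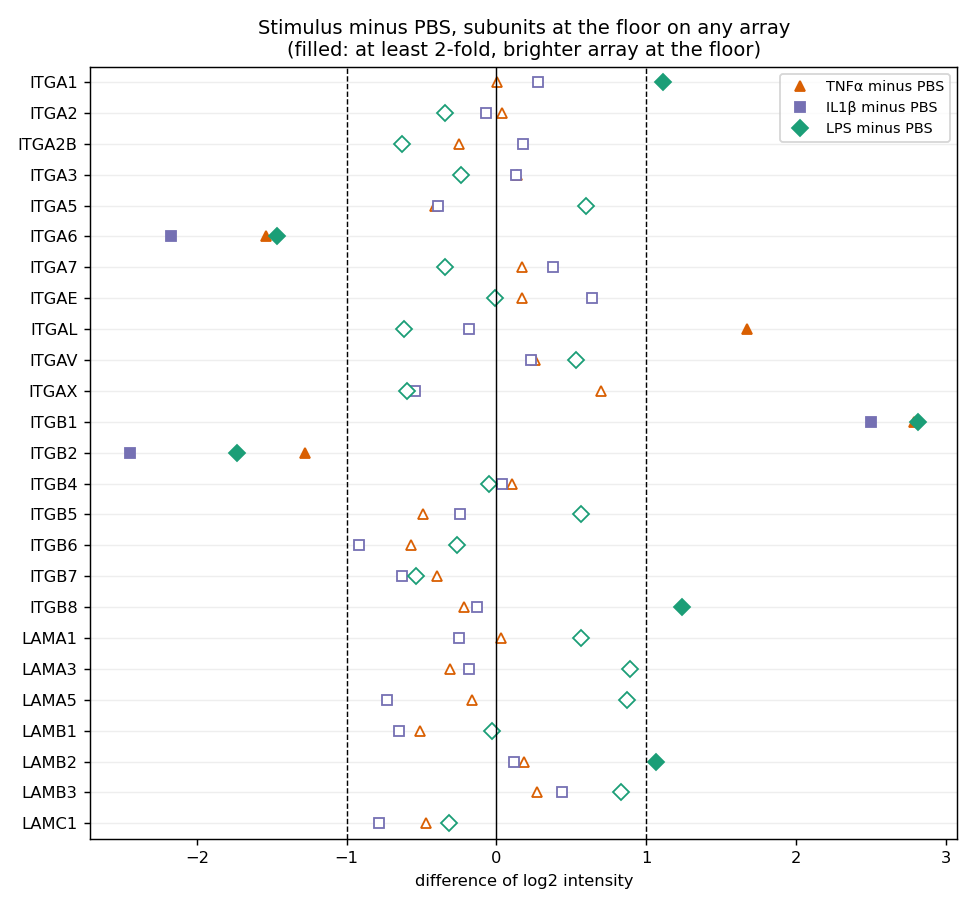
Difference of log2 intensity between each stimulated array and the PBS array for the 25 subunits at the floor on any array; filled markers are at least 2-fold with the brighter array at the floor, open markers are not, and the dashed lines are 2-fold. ITGB1 lies between 2.50 and 2.81 and ITGA6 and ITGB2 lie left of -1 for all 3 stimuli, ITGAL passes the line with TNFα alone, and ITGA1, ITGB8 and LAMB2 with LPS alone.

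ITGB8, the β8 chain that with αV activates latent TGFβ, had an intensity of 281 with PBS, 242 after TNFα, 257 after IL1β and 662 after LPS. The LPS array stood above the other 3, which were close together. ITGB8 was 2.36-fold higher with LPS than with PBS, 2.74-fold higher than with TNFα and 2.58-fold higher than with IL1β. Its partner ITGAV read 300 with PBS, 358 after TNFα, 351 after IL1β and 432 after LPS, and no pair of arrays differed 2-fold.

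ITGA1, the collagen-binding α1 chain, had an intensity of 138 with PBS, 138 after TNFα, 166 after IL1β and 298 after LPS. It reached the floor on the LPS array only, where it was 2.17-fold higher than with PBS or TNFα and 1.79-fold higher than with IL1β. With an offset added before log2, as used for dim probes, its difference from PBS was 0.89 and no longer passed the limit. The other collagen receptor chain at the floor, ITGA2, read 686 with PBS, 703 after TNFα, 655 after IL1β and 541 after LPS, all within 0.38 log2 units.

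ITGA5, the fibronectin receptor α5 chain, and ITGB5, the β5 chain of a vitronectin receptor, had the same order of arrays. ITGA5 read 737 with PBS, 554 after TNFα, 562 after IL1β and 1114 after LPS. ITGB5 read 734 with PBS, 522 after TNFα, 621 after IL1β and 1084 after LPS. In both the LPS array was the highest and the cytokine arrays were below PBS. Against TNFα, LPS was 2.01-fold higher for ITGA5 and 2.08-fold for ITGB5, and both calls were lost with loess centring (0.90 and 0.95 log2 units). Against PBS neither reached 2-fold, at 0.60 and 0.56.

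The 7 laminin chains at the floor had larger values with LPS than with either cytokine. Of the 3 chains under the floor, LAMA2 was lower with LPS (154) than with TNFα (225) or IL1β (211). LAMA4 and LAMC3 were higher with LPS than with either. In each comparison 2 of the 7 at the floor were at least 2-fold higher. Of all genes at the floor 9.93% were so against TNFα and 10.5% against IL1β. All 7 chains at the floor had a positive difference against TNFα, with a median of 0.56 log2 units where all genes at the floor had 0.11. All 7 were positive against IL1β too, with a median of 0.81 against 0.10 for all genes. Of all genes at the floor, 5434 of 9655 were positive against TNFα and 5398 of 9707 against IL1β. Loess centring of the arrays left all 7 positive in both, at medians of 0.47 and 0.71. These comparisons share the LPS array, so they are not independent. Against PBS, LPS gave a positive difference for 5 of the 7 and a negative one for 2, with a median of 0.83, and LAMB2 alone reached 2-fold. Of all genes at the floor, 5114 of 9675 were positive in that comparison and 8.83% were at least 2-fold higher.

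LAMA3, the α3 chain of laminin-332, had an intensity of 1250 with PBS, 1011 after TNFα, 1103 after IL1β and 2323 after LPS. The LPS array was the highest and the other 3 lay close together. LAMA3 was 2.30-fold higher with LPS than with TNFα, 2.11-fold higher than with IL1β and 1.86-fold higher than with PBS. With loess centring the difference from IL1β was 0.94 log2 units, just under 2-fold. LAMB3, the β3 chain of the same trimer, read 10378 with PBS, 12523 after TNFα, 14027 after IL1β and 18424 after LPS. It was highest with LPS as well, but no pair of arrays differed 2-fold, and the difference of LPS from PBS was 0.83. The remaining chain of laminin-332 is not analysed here. Of the 10 squamous epithelial markers 2 were called higher with LPS than with PBS, where 8.83% of all genes were. These were KRT14, a basal keratin (2.38-fold), and TP63, which encodes the regulator p63 of basal cells (2.79-fold). KRT5, KRT19, SFN and DSP were above PBS by less than 2-fold. KRT8, EPCAM, PERP and KRT18 were below it, at -0.26, -0.26, -0.15 and -0.02 log2 units. KRT14, KRT19 and TP63 were called higher with LPS than with either cytokine, where 9.93% (TNFα) and 10.5% (IL1β) of all genes were. TP63 read 986 with PBS, 949 after TNFα, 933 after IL1β and 2747 after LPS. The 10 summed to 125272 with PBS, 128184 after TNFα, 119916 after IL1β and 151524 after LPS, and their part in the laminin values was not tested.

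LAMA5, the α5 chain of the laminins found in most adult basement membranes, had an intensity of 460 with PBS, 411 after TNFα, 277 after IL1β and 842 after LPS. The LPS array was the highest and the IL1β array the lowest. LAMA5 was 3.04-fold higher with LPS than with IL1β and 2.05-fold higher than with TNFα, the second of which was lost with loess centring (0.95). LAMB2, the β2 chain, read 497 with PBS, 564 after TNFα, 539 after IL1β and 1038 after LPS. It was 2.09-fold higher with LPS than with PBS, and 0.99 log2 units higher with the offset. LAMA1, the α1 chain, had the same high array, with 584 on PBS, 597 after TNFα, 491 after IL1β and 863 after LPS. The β1 and γ1 chains differed from this order. LAMB1 read 1187 with PBS and 1161 with LPS, and LAMC1 3227 with PBS and 2590 with LPS, while TNFα (833 and 2331) and IL1β (755 and 1878) gave the lowest values.

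The windows of ITGA1, ITGB8 and LAMA3, called higher with LPS against at least 1 other array, are shown as examples that held a searched motif. ITGA5, called higher with LPS than with TNFα, held a κB match too and is not shown. The windows are the 250 bases upstream on the plus strand, at chr5:52787666-52787915, chr7:20330650-20330899 and chr18:23872770-23873019 of GRCh38.p14, from RefSeq. Capitals mark the κB consensus in ITGA1 and ITGB8 and TGANTCA, the recognition motif of the AP-1 factors, in LAMA3.
ITGA1: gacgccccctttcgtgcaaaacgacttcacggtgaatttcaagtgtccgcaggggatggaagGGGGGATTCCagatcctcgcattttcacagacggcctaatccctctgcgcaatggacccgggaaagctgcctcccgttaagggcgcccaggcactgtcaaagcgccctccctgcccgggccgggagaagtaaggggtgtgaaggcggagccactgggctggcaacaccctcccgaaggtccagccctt
ITGB8: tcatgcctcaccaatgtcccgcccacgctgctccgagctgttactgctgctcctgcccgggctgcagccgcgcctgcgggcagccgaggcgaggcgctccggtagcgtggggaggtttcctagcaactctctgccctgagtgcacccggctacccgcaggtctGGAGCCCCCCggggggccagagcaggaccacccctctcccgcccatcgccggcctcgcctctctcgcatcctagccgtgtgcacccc
LAMA3: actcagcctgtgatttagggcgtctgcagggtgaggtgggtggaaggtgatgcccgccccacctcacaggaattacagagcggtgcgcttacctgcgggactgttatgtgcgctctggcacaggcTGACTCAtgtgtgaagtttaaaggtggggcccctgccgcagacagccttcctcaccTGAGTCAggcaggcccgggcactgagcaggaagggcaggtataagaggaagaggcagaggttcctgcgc
The match lay 188 bases before the start in ITGA1 and 87 in ITGB8, where it reads on the minus strand. LAMA3 had 2 matches, 125 and 69 bases before the start. TGANTCA was in 6.57% of the 35116 windows and in 2 of the 32 windows of the subunits, a share near that of all windows. Those 2 were windows of LAMA3 and LAMB3. The start sites shown for ITGB8 and LAMA3 lie inside the annotated gene and not at its outermost start. The windows of LAMB2, LAMA5 and ITGB5, also called higher with LPS against another array, held neither motif, and all motifs were searched after the values were known.

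ITGA3 and ITGA7, α chains of other laminin receptors, were not called in any comparison. ITGA3, the α3 chain that with β1 binds laminin-332, had 1937 with PBS, 2129 after TNFα, 2116 after IL1β and 1646 after LPS, a range of 0.37 log2 units and lowest with LPS. ITGA7, the α7 chain best known from muscle, read 892 with PBS, 1003 after TNFα, 1157 after IL1β and 701 after LPS, also lowest with LPS. Of the 8 striated and cardiac muscle markers 7 reached the floor with PBS and 3 with LPS, and their summed intensity was 40357 with PBS, 51131 after TNFα, 60395 after IL1β and 15137 after LPS. This sum was highest and lowest on the same arrays as ITGA7, and so were MYH6 and ACTC1. Of the other markers, MYH7 and TNNI3 were highest with TNFα and TNNT2 and CKM highest with PBS. DES and MYL2 were lowest with TNFα. The part of the 8 muscle markers in the ITGA7 values was not tested.

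Of the β2 family, ITGB2, the common chain, was lower with each stimulus, while ITGAL was higher with TNFα only. ITGB2 read 894 with PBS, 369 after TNFα, 164 after IL1β and 269 after LPS. The PBS array was the highest, and the folds were 2.43 lower with TNFα, 5.46 lower with IL1β and 3.32 lower with LPS. All these folds share the single PBS array and are not independent. ITGAL, the αL chain of the lymphocyte receptor for ICAM1, read 438 with PBS, 1395 after TNFα, 386 after IL1β and 285 after LPS. TNFα alone was high, 3.19-fold above PBS, 3.61-fold above IL1β and 4.89-fold above LPS. The subunits of αLβ2 were thus called in opposite directions with TNFα. ITGAX, the αX chain of dendritic cells and macrophages, read 322 with PBS, 521 after TNFα, 221 after IL1β and 213 after LPS, and ITGAM, the αM chain, was near background throughout, at 33 to 68.

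Between the cytokine arrays 23 subunits had a value at the floor. TNFα exceeded IL1β at least 2-fold in 3 of them, where 1.87% of all genes at the floor did, and in none was it lower, where 1.74% were. The 3 were ITGAL, ITGAX (2.36-fold) and ITGB2 (2.25-fold), all of the β2 family. With the offset the difference of ITGB2 was 0.97 log2 units and no longer passed the limit, and with the floor at the 75th percentile ITGAL alone was called. The laminin chains ran from -0.16 (LAMB3) to 0.57 (LAMA5) in this comparison. LPS exceeded TNFα at least 2-fold in 6 of 25 subunits (24%, against 9.93% of all genes), namely ITGA1, ITGA5, ITGB5, ITGB8, LAMA3 and LAMA5. It was lower in 2 (8%, against 7.09%), ITGAL and ITGAX. LPS exceeded IL1β in 3 of 24 (12.5%, against 10.5%), ITGB8, LAMA3 and LAMA5, and was lower in none, where 7.45% of all genes were.

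**Figure D4:**
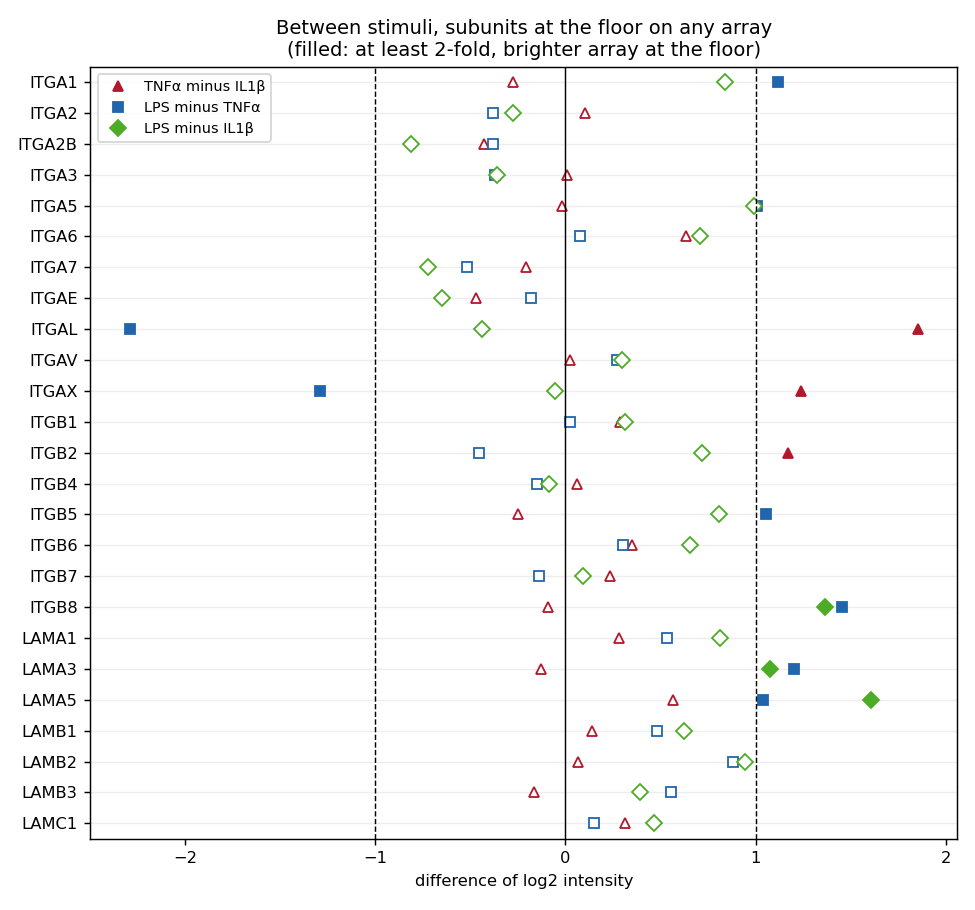
Difference of log2 intensity between stimulated arrays for the 25 subunits at the floor on any array; filled markers are at least 2-fold with the brighter array at the floor, open markers are not, and dashed lines are 2-fold. ITGAL and ITGAX pass the line in both comparisons with TNFα, and all 7 laminin chains lie right of 0 for LPS minus TNFα and LPS minus IL1β.

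Markers of leukocytes were set beside the β2 values. All 14 were measured, and the floor was reached by 4 on the PBS array, 5 after TNFα, 6 after IL1β and 2 after LPS. Their summed intensity was 6312 with PBS, 8062 after TNFα, 8476 after IL1β and 5380 after LPS. PTPRC, the CD45 phosphatase of all leukocytes, read 91.5 with PBS, 1295 after TNFα, 1046 after IL1β and 81.5 after LPS. The T cell and B cell markers CD3E and MS4A1 were near background on all 4 arrays. PTPRC was thus high on both cytokine arrays, whereas ITGAL was high on 1 of them and ITGB2 highest with PBS. In bulk RNA of this kind, more cells of a type and more RNA per cell cannot be told apart, and the part of other cells in the β2 values was not tested.

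The β7 and platelet chains stayed between the limits. ITGB7, the β7 chain of lymphocyte homing receptors, read 516 with PBS, 392 after TNFα, 334 after IL1β and 355 after LPS, and was highest with PBS. ITGAE, the αE chain that with β7 binds E-cadherin, read 269 with PBS, 303 after TNFα, 420 after IL1β and 268 after LPS. ITGA2B, the αIIb chain of the platelet fibrinogen receptor, read 376 with PBS, 316 after TNFα, 425 after IL1β and 242 after LPS, while its partner ITGB3 was near background on all 4 arrays. The 6 platelet markers summed to 1474 with PBS, 1559 after TNFα, 1817 after IL1β and 1175 after LPS. This sum was highest and lowest on the same arrays as ITGA2B, and so were GP1BA and TUBB1. The other markers were not: GP9 was lowest and PF4 highest with TNFα, and PPBP was lowest and GP6 highest with PBS. The floor was reached by 2 of the 6 with PBS, 3 after TNFα, 4 after IL1β and 2 after LPS. The part of these markers in the ITGA2B values was not tested.

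Genes that act with these subunits were taken from lists chosen by function. Of 24 cytoplasmic adaptors and kinases, 21 were at the floor on either array with TNFα and PBS, and 1 was lower and none higher. Of all genes at the floor 3.37% were higher and 3.4% lower there. With IL1β 1 of 22 was higher and 1 lower (3.13% and 3.57% of all genes). With LPS 1 of 22 was higher and 2 lower (8.83% and 7.42%). FERMT1, kindlin 1, which activates β integrins in epithelium, was 2.66-fold lower with TNFα. FERMT2, kindlin 2, was 3.53-fold higher with LPS, and the tyrosine kinase SRC was 2.78-fold lower. PARVA, a parvin that links integrins to actin, was 2.22-fold lower with IL1β, and TLN2, a talin, 2.20-fold higher. The list's median difference was -0.37 with TNFα, -0.26 with IL1β and 0.00 with LPS.

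The 5 hemidesmosome and anchorage genes, PLEC, DST, COL17A1, CD151 and COL7A1, reached the floor on all 4 arrays and none differed 2-fold from PBS with any stimulus. Between stimuli, COL7A1 was 2.03-fold higher with LPS than with TNFα, where 9.93% of all genes were higher. Of 10 basement membrane partners of laminin, 7 were at the floor in each comparison with PBS. HSPG2 (perlecan) was 2.04-fold lower with TNFα, where 3.4% of all genes were lower. COL4A5, a collagen IV chain, was 2.22-fold lower with IL1β, where 3.57% were, and none was called with LPS. Of 4 measured laminin receptors that are not integrins, all at the floor, SDC4, a syndecan, was 2.26-fold higher with LPS than with PBS, where 8.83% of all genes were. SDC4 was also 3.64-fold higher with LPS than with TNFα and 3.25-fold higher than with IL1β. Another of these receptors, BCAM, was 2.21-fold lower with LPS than with TNFα and 2.49-fold lower than with IL1β. Among 18 measured ligands of integrins, 10 were at the floor with TNFα, of which 1 was higher and 3 lower, where 3.37% and 3.4% of all genes were. With IL1β 1 of 10 was higher and 2 lower (3.13% and 3.57% of all genes), and with LPS 2 of 12 were higher and 4 lower (8.83% and 7.42%). TNC, tenascin C, a ligand of α9β1, read 951 with PBS, 141 after TNFα, 160 after IL1β and 251 after LPS. It was lower with all 3, by 6.75-fold with TNFα, 5.95-fold with IL1β and 3.79-fold with LPS. ICAM1, the ligand of αLβ2, was higher with all 3, with 178 on the PBS array, 405 on TNFα, 533 on IL1β and 1276 on LPS. CDH1 (E-cadherin), the ligand of αEβ7, was lower with all 3, with 1209 on the PBS array, 232 on TNFα, 287 on IL1β and 284 on LPS. For TNC, ICAM1 and CDH1 the comparisons share the single PBS array and are not independent.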

How the data were processed

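Total RNA of each condition was copied to cDNA, labelled with Cy3 and hybridised to a single NimbleGen array, per the labels' protocols. Per the file headers and names, the authors deposited linear RMA intensity values for each probe set. The software and its settings are not stated in any source used here. The deposited series value table held the same intensity values for all 45033 probe sets.

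Transcript accessions were matched without versions to RefSeq symbols of GRCh38.p14. Of 45033 probe sets 18866 (41.9%) matched 1 symbol, giving 17185 genes. The brightest probe set by mean log2 intensity stood for a gene. The size rule (2-fold, floor at the median) was run on simulated data to check the code. The changed genes there were set past the 2-fold limit and at the floor, so finding them was fixed in advance. That run gives no error rate for these arrays. Shares of all genes were taken over genes with the brighter of both arrays at the floor. With 1 array per group no test was possible, and precision is limited by that number.

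The members, lists and size rule were chosen with earlier results of these data known. Every member that met the size rule was described on all 4 arrays. Of each function list at most 3 called genes per stimulus were named. The pairing of subunits follows textbooks. Of the marker lists, fibroblast markers summed to 1693 with PBS, 1711 after TNFα, 1611 after IL1β and 976 after LPS, and endothelial markers to 1026, 630, 696 and 857.

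Alternatives tried were loess centring of array pairs (span 0.3), quantile normalization done once more, an offset of 50.9 (the 10th percentile) before log2, averaging the probe sets of a gene, a higher floor (754, the 75th percentile) or none, and the series value table. The work used matplotlib 3.10.9, statsmodels 0.14.6, pandas 2.3.3 and numpy 2.4.6 under Python 3.11.15.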

Additional observations from a re-analysis of the deposited data

Results flagged for a closer look

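Some subunits lay on opposite sides of PBS with 2 stimuli and differed at least 2-fold between those stimuli; with 1 array per group the difference was not tested. Between TNFα and IL1β these were ITGAL, at 1.85 log2 units (TNFα minus IL1β), and ITGAX, at 1.24. For LPS minus TNFα the difference was -2.29 for ITGAL and -1.29 for ITGAX. In the other direction it was 1.01 for ITGA5, 1.06 for ITGB5, 1.45 for ITGB8, 1.20 for LAMA3 and 1.04 for LAMA5. For LPS minus IL1β it was 1.37 for ITGB8, 1.07 for LAMA3 and 1.60 for LAMA5. All of these rest on 1 probe set per gene.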

How the results depend on the processing

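Each of the 12 counts of subunits was recomputed under 7 alternatives, and 73 of the 84 values stayed within 1.5 times the reported count. Without a floor, subunits higher with IL1β than PBS were 2 and lower 4, and between LPS and IL1β 6 were higher and 2 lower, the added ones being dim chains such as ITGA4, LAMA4 and LAMC3. With the mean of all probe sets, 1 subunit (ITGA11) was lower with LPS than with IL1β. ITGA11 has 1 probe set, so its values did not change. The floor was recomputed for this alternative, and ITGA11, at 258 with IL1β, then reached it. With the floor at the 75th percentile, 2 were higher with LPS than PBS, 1 was higher with TNFα than IL1β and 1 was lower with LPS than TNFα; fewer genes pass this floor. With the offset, 2 were higher with LPS than PBS and 2 with LPS than TNFα, and with loess centring 3 were higher with LPS than TNFα. Of 27 single calls, loess centring kept 23, the offset 20, repeated quantile normalization 26 and the higher floor 19, and no called difference changed sign under the alternatives run. The calls of ITGB1 and ITGA6 in all 3 comparisons with PBS were kept under each of them. No paired analysis was possible because each group had 1 array. The signal over background limits the 10 subunits under the floor.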
